A study of Mus musculus with 4 samples.

Results

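NB1 was the first neuroblast cluster of adult hippocampal neurogenesis in this single-nucleus RNA sequencing study, and its nuclei were divided here into an early and a late part of the pseudo-time that the authors deposited for each nucleus. Members were selected by the deposited annotation: a nucleus was NB1 where its cluster was given as NB1, early where its pseudo-time lay below 11.8 and late where it was 11.8 or more. This gave 2578 NB1 nuclei of 14367 nuclei in all, 770 early and 1808 late. The nuclei came from the left dentate gyri of Ascl1CreERT2;CAG floxStop-Sun1/sfGFP mice given tamoxifen, in which Cre activity in radial glia-like cells permanently tags the nuclear membrane of their progeny, and were sorted for that tag 1, 2, 4 or 8 weeks later (cohorts w1, w2, w4 and w8). All 4 cohorts share genotype, tamoxifen and sort, so none is an unlabelled control, and nuclei with the tag include any cell type in which the Cre line is active. Each cohort was 1 library made from a pool of 4 mice of both sexes. Tests across w1, w2 and w4 ask how alike the difference between late and early is in 3 pools. They do not measure how single animals vary. The w8 library held no NB1 nucleus.

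Neuroblasts are the postmitotic daughters of neural progenitor cells (NPCs). In the dentate gyrus they leave the subgranular zone, extend a first process, and take on the identity of a glutamatergic granule cell under transcription factors such as Prox1. They lose the progenitor programme of Eomes, Sox and Notch genes while receptors, channels and adhesion molecules that will serve dendrites, axons and synapses are switched on, before the cells become immature granule cells (the cluster GCimm1).

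Pseudo-time is a coordinate along a curve fitted through the expression profiles and not a clock. In NB1 it ran from 3.18 to 15.6 with a median of 13, between the median of 8.08 in NPC and of 16.9 in GCimm1. The w1 library held 483 early and 1009 late nuclei, w2 held 236 and 720, and w4 held 51 and 79. The late share was 67.6% in w1 (95% exact Clopper-Pearson interval 65.2 to 70.0), 75.3% in w2 (72.5 to 78.0) and 60.8% in w4 (51.8 to 69.2). These intervals cover counting error only, and with 1 pool per week no test between weeks was possible. The nearest nuclei on either side of the cut had pseudo-times of 11.798 and 11.801, and 159 nuclei lay within 0.5 below and 160 within 0.5 above it, so the cut passes through a continuous population. The adjoining cluster NB2, a second neuroblast cluster on the same curve, had a median of 13.7 in these libraries.

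**Figure D1:**
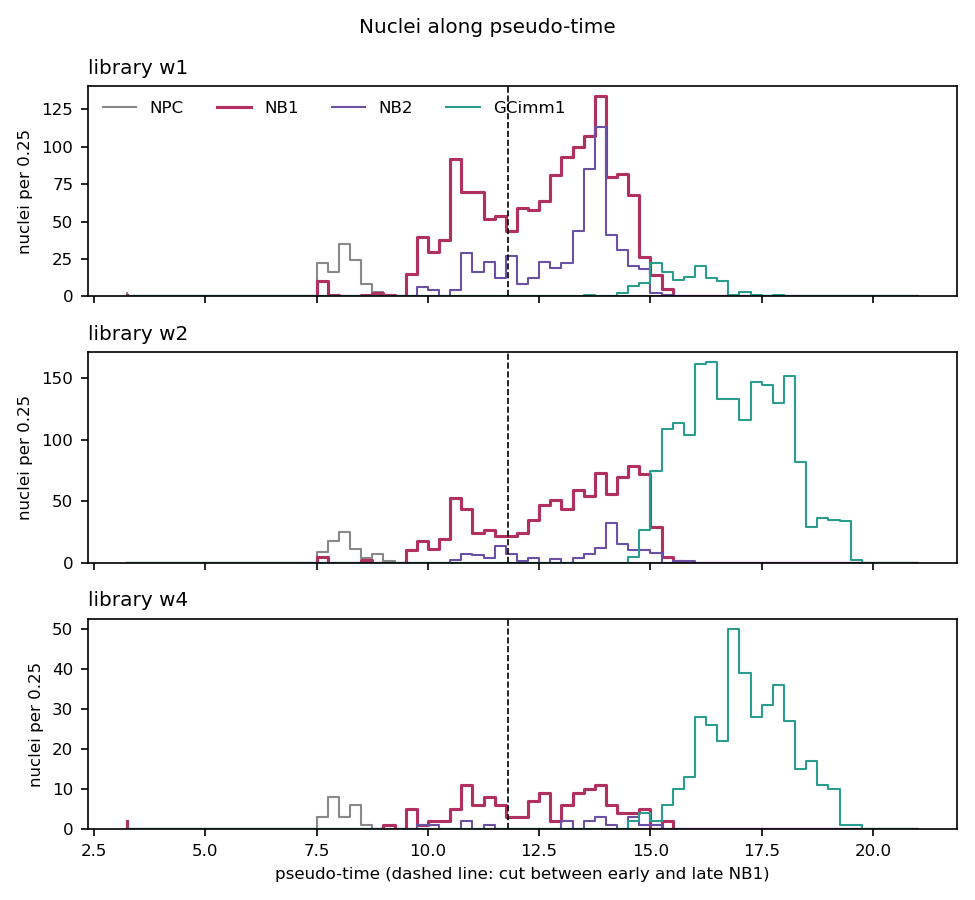
Number of nuclei per 0.25 of pseudo-time (y axis) against pseudo-time (x axis) for NPC, NB1, NB2 and GCimm1 in the libraries w1, w2 and w4, with the cut between early and late NB1 as a dashed line. NB1 spans the interval between NPC and GCimm1 in each library, with nuclei on both sides of the cut and w1 and w2 hold a small separate group of NB1 nuclei near the NPC values.

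The label neuroblast was set beside 15 marker genes, of which 13 had at least 50 unique molecular identifiers (UMIs, the counted molecules) in NB1 and the other 2 were listed at 0 in every nucleus. Levels are given in CPM, the UMIs of a gene scaled to 1e6 UMIs in all for that sum of nuclei. Dcx, a microtubule-binding protein used as a marker of immature neurons, stood at 563 CPM in early and 441 CPM in late nuclei of w1, 471 and 391 in w2, and 548 and 442 in w4. Sox11, a SoxC transcription factor of young neurons, differed by a mean log2 ratio of 0.02 ± 0.04 (SD, n = 3 libraries) between late and early nuclei. Both genes were thus detected on either side of the cut in every library. The paper also gives both to the immature granule cell clusters, so their detection does not single out neuroblasts. Of the 13 markers, 6 were lower and 3 higher in late nuclei by at least 1.5 fold, and the other markers are described below.

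A small group of early nuclei stood apart from these. Of the 24 NB1 nuclei with pseudo-time below 9, 16 had a UMI of Dlx6os1, a non-coding RNA of the Dlx locus that is used in GABAergic lineages, against 1 of 746 other early and 1 of 1808 late nuclei. They lay between 7.70 and 7.95, 11 in w1 and 5 in w2, and the level of Dlx6os1 in them was 2657 CPM. The same 16 nuclei held Gad2 at 1194 CPM, Adarb2 at 3435 CPM and Erbb4 at 5113 CPM, against 2.21, 4.10 and 12.3 CPM in early nuclei from pseudo-time 9 on. Dcx stood at 899 CPM and Prox1 at 215 CPM in them, while Eomes, Sst, Pvalb and Vip had 0 UMIs. Gad2 makes GABA, and Adarb2 and Erbb4 mark classes of interneurons, whereas Sst, Pvalb and Vip are the peptides and the calcium-binding protein of mature interneurons. They were kept as NB1, and the leading counts were also made without the 24 nuclei.

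Median depth differed little in relation to its level. It was 4099 UMIs in early and 4045 in late nuclei of w1, 4118 and 4209 in w2, and 3300 and 3324 in w4. With each nucleus thinned to 2000 UMIs, which left out 28 early and 64 late nuclei, the median number of features detected was 1201 in early and 1229 in late nuclei of w1, 1245 and 1285 in w2, and 1219 and 1243 in w4. The difference was 30.7 ± 8.33 features (SD, n = 3 libraries, higher in 3 of 3), with a two-sided exact sign-flip permutation p of 0.25, the smallest that 3 pairs allow. Mitochondrial UMIs made up 0.0247% of the UMIs of an early and 0.0243% of those of a late nucleus, as the mean over libraries. Nuclei were called male where Y-linked UMIs (Uty, Ddx3y, Eif2s3y) outnumbered those of the X-inactivation transcripts Tsix and Xist. The male-called share went from 46.4% of called early to 58.4% of called late nuclei in w1, from 40.5% to 32.1% in w2 and from 26.5% to 23.0% in w4, and its part in the results was not tested. None of those 5 genes passed the test described next (edgeR adjusted p from 0.14 to 0.74). No barcode was shared between libraries among NB1 nuclei.

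Because pseudo-time was computed from gene expression, a difference between early and late nuclei in a gene that went into it is fixed by the choice of nuclei. Any gene of the authors' normalized table may have gone into it, so differences in these genes are given below as a description. A test was made for the features that are not in the authors' normalized table, and so are taken as not having entered the curve, among them genes detected in 80% or more of all nuclei. Their sums over early and over late nuclei of w1, w2 and w4 were compared with edgeR's quasi-likelihood test in a model with library as a block, fitted on all 10734 features that passed its filter and adjusted over all of them. Of 412 such features, 88 rose in late NB1, 21.4% of those tested, and 71 fell, 17.2% of those tested. The counts depended on the libraries, with 56 and 42 without w1 and 100 and 107 without w4. They are read from the same nuclei as the genes of the curve, and genes of a cell vary together, so they are independent of the choice as measurements and not as biology. Without the 24 nuclei below pseudo-time 9 the counts were 85 and 75, of which 84 and 69 were among the features called with them.

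Most calls were of abundant genes. Of the 412 features, 202 were detected in at least 80% of nuclei, and 70 of these rose, 50 fell and 82 did not pass the test. All 70 were higher in late nuclei in w1 and in w2 and 68 were in w4, and the 50 were lower in w1 and in w2 with 49 lower in w4. These 202 are defined by wide detection over all nuclei, later clusters included. A gene confined to early NB1 could hardly be among them, so sizes of rise and fall are not compared on equal terms. Among the called ones the changes upward were larger. The median was 0.79 on the log2 scale among the genes that rose, with 26 changed by 2 fold or more, and -0.55 among the genes that fell, with 8 changed by 2 fold or more. Of the remaining 210 features, 196 detected in 1 to 80% of nuclei and 14 in under 1%, 18 rose and 21 fell. The study's methods name genes removed for sex and stress effects, such as Xist, Uty, Tubb2a and Scg5, and give no reason for most of the others. Some rare features passed the count filter only through the side on which they were high, such as Scube1 at 15.3 CPM in early and 0.524 CPM in late nuclei, so the 18 and 21 support nothing further. Among all called features, 83 of the 88 and 65 of the 71 had the same sign in all 3 libraries. Insm1 and Lppos, chosen after their values were seen, were called lower with mean log2 ratios of 0.34 and 0.41, having 0 UMIs in early nuclei of w4, and of -1.90 and -2.08 over w1 and w2.

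**Figure D2:**
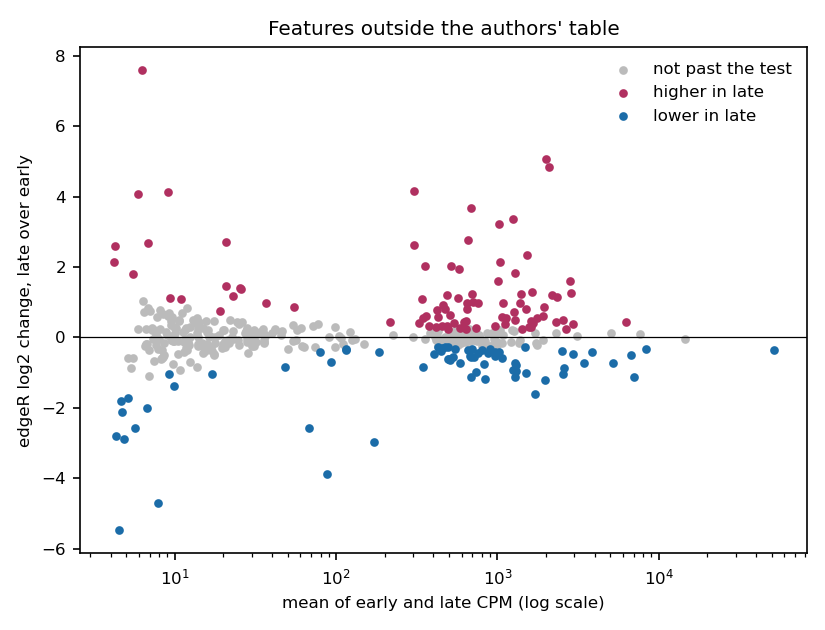
Change of each of the 412 tested features on the log2 scale, late over early NB1 (y axis, edgeR estimate), against the mean of its early and late level in CPM (x axis, log scale), coloured by the test: 88 rose, 71 fell and the rest did not pass. The features form an abundant and a rare group, and both hold calls in each direction.

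Among the 202 abundant genes Dab1 had the largest change. Dab1 (chr4:103619359-104744844, plus strand, GRCm38), the intracellular adaptor that carries the Reelin signal, stood at 94.5 CPM in early and 3990 CPM in late nuclei of w1, 138 and 3740 in w2, and 141 and 3687 in w4. Early and late values did not come near each other in any library, and Dab1 rose by a log2 change of 5.06 ± 0.13 (SE, edgeR adjusted p = 2.5e-19). Nrg3 (chr14:38368952-39473088, minus strand), a neuregulin ligand of the ErbB4 receptor, stood at 101 and 3948 CPM in w1, 174 and 4182 in w2, and 203 and 3854 in w4. It rose by 4.85 ± 0.14 (SE, edgeR adjusted p = 1.9e-18). Prkg1 (chr19:30564489-31765033, minus strand), the cGMP-dependent protein kinase, stood at 28.1 and 553 CPM in w1, 30.2 and 623 in w2, and 67.8 and 460 in w4, a rise of 4.17 ± 0.16 (SE, edgeR adjusted p = 3.2e-16). Dok6, an adaptor of receptor tyrosine kinases such as Ret and the Trk family, stood at 406 and 1851 CPM in w1, 327 and 1436 in w2, and 407 and 1674 in w4, and rose by 2.14 ± 0.09 (SE, edgeR adjusted p = 2.8e-15).

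The other 4 genes of the 8 with the smallest p among those that rose were Clstn2, Tenm2, Sema5a and Opcml. Clstn2 (chr9:97444395-98033181, minus strand), a calsyntenin of the postsynaptic membrane, stood at 99.4 and 1358 CPM in w1, 97.4 and 1151 in w2, and 102 and 1266 in w4, with a log2 change of 3.68 ± 0.11 (SE, edgeR adjusted p = 5.3e-18). Tenm2 (chr11:36006656-37235964, minus strand), a teneurin that binds latrophilins across the synapse, stood at 217 and 1710 CPM in w1, 179 and 2071 in w2, and 175 and 1604 in w4, with a log2 change of 3.22 ± 0.11 (SE, edgeR adjusted p = 4.8e-17). Sema5a (chr15:32244810-32696341, plus strand), a transmembrane semaphorin, stood at 207 and 2515 CPM in w1, 205 and 1990 in w2, and 288 and 2049 in w4, with a log2 change of 3.36 ± 0.11 (SE, edgeR adjusted p = 5.4e-17). Opcml (chr9:27790775-28925410, plus strand), a GPI-anchored adhesion molecule of the IgLON family, stood at 203 and 1184 CPM in w1, 118 and 1047 in w2, and 220 and 1311 in w4, with a log2 change of 2.76 ± 0.11 (SE, edgeR adjusted p = 1.2e-15). For each of these 4 genes every late value lay above every early value, across libraries as well as within them. The choice by smallest p favours such a separation, so it adds nothing to the test.

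With clone-named models left out, the genes of smallest p among those that fell were led by a long non-coding RNA, Rmst. The clone-named lincRNA Gm38399 had a smaller p, with a log2 change of -3.89 ± 0.19 (SE, edgeR adjusted p = 2.7e-14). Rmst, which binds Sox2 and is used in neural progenitors, stood at 300 CPM in early and 47.7 CPM in late nuclei of w1, 304 and 32 in w2, and 328 and 3.71 in w4, and fell by 2.98 ± 0.16 on the log2 scale (SE, edgeR adjusted p = 2.3e-13). Plcb1 (chr2:134786067-135475258, plus strand), a phospholipase C downstream of Gq-coupled receptors, stood at 2857 and 942 CPM in w1, 2169 and 677 in w2, and 2255 and 817 in w4, and fell by 1.60 ± 0.09 (SE, edgeR adjusted p = 2.4e-13). Rasgef1b, an exchange factor for small GTPases, stood at 115 and 19.3 CPM in w1, 117 and 20.9 in w2, and 130 and 11.1 in w4, and fell by 2.57 ± 0.16 (SE, edgeR adjusted p = 3.6e-12). A row of the authors' table carries the symbol Rasgef1b with another gene identifier, so Rasgef1b is not clear of the genes used for the curve, and the same holds for 3 of the 159 called features in all, Rasgef1b, Galntl6 and Mical3. Rmst and Rasgef1b were detected in 13.5% and 5.07% of all nuclei, so they belong to the rare features, whose calls support nothing further. Early values of all 3 transcripts lay above all late values. They were chosen for their small p, so this adds nothing to the test.

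The other 5 genes named among those that fell were abundant. Mir99ahg (chr16:77236317-77773427, plus strand), the host transcript of a microRNA cluster, stood at 9961 and 4632 CPM in w1, 9402 and 3778 in w2, and 8137 and 4322 in w4, a change of -1.12 ± 0.09 on the log2 scale (SE, edgeR adjusted p = 1.9e-10). Frmd4b, a scaffold with a FERM domain, stood at 2919 and 1178 CPM in w1, 2638 and 1065 in w2, and 2514 and 1292 in w4, a change of -1.22 ± 0.09 (SE, edgeR adjusted p = 5.9e-11). Cttnbp2 (chr6:18366478-18514843, minus strand), a cortactin-binding protein of dendritic spines, stood at 3335 and 1426 CPM in w1, 3709 and 2050 in w2, and 2791 and 1385 in w4, a change of -1.03 ± 0.08 (SE, edgeR adjusted p = 6.9e-10). Wbscr17, a glycosyltransferase, changed by -1.19 ± 0.09 (SE, edgeR adjusted p = 1.7e-10), from 1074 to 1221 CPM in early to 497 to 561 CPM in late nuclei. Egfem1, a protein with EGF-like modules, changed by -1.12 ± 0.09 (SE, edgeR adjusted p = 9.1e-10), from 1652 to 2164 CPM in early to 765 to 865 CPM in late nuclei. Early and late values did not overlap for any of these 5 genes. They were chosen for their small p, so this adds nothing to the test.

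**Figure D3:**
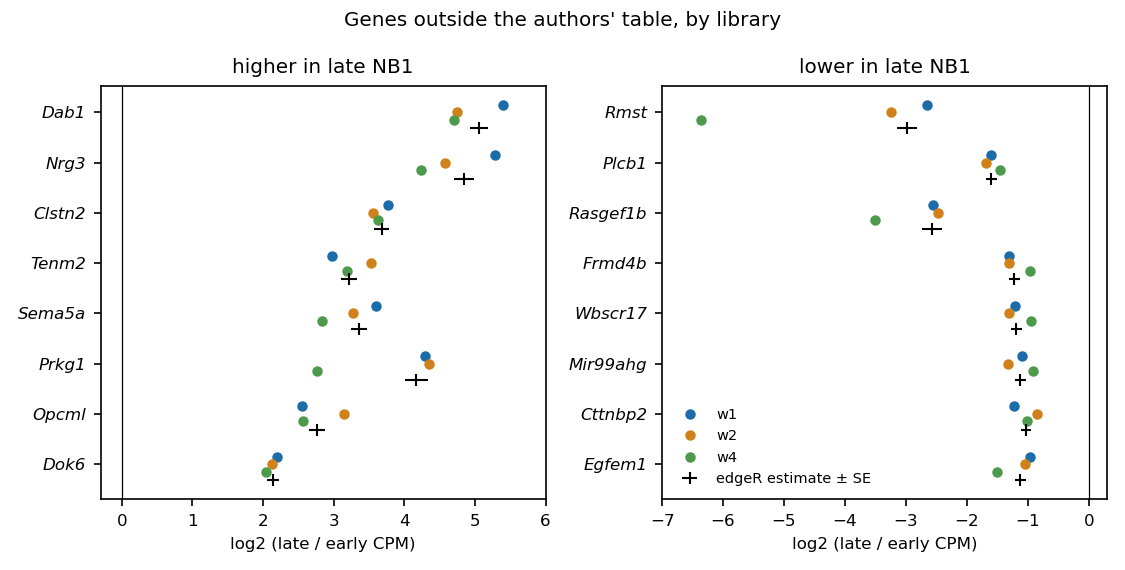
Log2 ratio of the late over the early level (x axis) in each library (coloured points) for the 8 named genes of smallest p in each direction, with the edgeR estimate and its SE in black. The 3 libraries lie on the same side of 0 for all 16 genes. The w4 point of Rmst, from the shallowest library, lies far from those of w1 and w2.

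Identity and RNA-binding factors outside the curve moved in both directions, as did the 202 abundant features, of which 70 rose and 50 fell. The factors were not tested against them. Prox1 (chr1:190118035-190170714, minus strand), the homeobox factor of granule cell identity, stood at 486 CPM in early and 1117 CPM in late nuclei of w1, 439 and 917 in w2, and 735 and 962 in w4. Late values were above early values in each library, most narrowly in w4, and Prox1 rose by 0.99 ± 0.11 on the log2 scale (SE, edgeR adjusted p = 1.1e-07). Rbfox1 (chr16:5885355-7411526, plus strand), a neuronal splicing regulator, stood at 1433 and 4425 CPM in w1, 1211 and 4048 in w2, and 1531 and 4040 in w4, and rose by 1.61 ± 0.08 (SE, edgeR adjusted p = 1.8e-13), although its span overlaps a gene of the authors' table on the same strand. Of the 6 neuronal transcription factors tested, Nfia (log2 change -0.72), Nfib (-0.73) and Tcf4 (-0.49) fell, Myt1l (0.60) and Rfx3 (0.34) rose, and Zbtb20 (-0.04) did not pass (edgeR adjusted p = 0.78). Among 4 RNA-binding proteins tested, Celf2 (-0.48) and Rbfox3 (-0.53), the antigen known as NeuN, fell, while Rbfox2 (-0.03) did not pass. These genes, and the list members in the next paragraph, are named because few of each list were tested, a choice made after their values were seen.

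The counts of receptors, channels and synaptic proteins outside the curve stand beside 70 of the 202 abundant features that rose and 50 that fell, and were not tested against them. Of 4 glutamate receptor subunits, the NMDA receptor subunit Grin2b rose by 0.98 ± 0.09 (SE, edgeR adjusted p = 7.5e-09), from 893 CPM over the early to 1872 CPM over the late nuclei, and the AMPA receptor subunit Gria1 rose by 0.57 ± 0.08, while Gria2 (0.04) and Grik2 (0.14) did not pass. The L-type calcium channels Cacna1c (0.72) and Cacna1d (0.93) rose, Cacna1a (0.19) did not pass, and the potassium channel Kcnb2 fell (-0.39). Of 7 postsynaptic genes, Dlg2 (2.04), Lrrtm4 (0.44) and Magi2 (0.51) rose and Dlgap1, Nlgn1, Magi1 and Gphn did not pass. Among presynaptic genes, the active zone scaffolds Rims1 (0.99) and Erc2 (1.02) rose, Cadps (-0.41) fell, and Snap25 and Ppfia2 did not pass. No gene of these lists was tested for what it does at a synapse, and nuclear transcript levels were the measurement.

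Guidance and adhesion genes outside the curve moved in both directions. These counts and those of microtubule genes stand beside 70 risen and 50 fallen of the 202 abundant features, and were not tested against them. Of 6 guidance genes, Sema5a, Plxna2 (0.98), Dcc (0.44) and Plxna4 (0.40) rose, the ephrin receptor Epha4 (-0.42) fell and Sema6d (0.23) did not pass. Of 11 adhesion genes, Tenm2, Opcml, Cntnap5a (2.35), Pcdh9 (1.10) and Lsamp (0.37) rose, Adgrl3 (-0.83), Ptprd (-0.72) and Negr1 (-0.34) fell, and Cdh2, Ncam1 and Dscaml1 did not pass. The teneurin Tenm2 and the latrophilin Adgrl3, which can bind each other, thus moved in opposite directions between the summed early and late nuclei. Pooled over the libraries, both stood higher in GCimm1 than in late NB1, Adgrl3 at 978 against 246 CPM and Tenm2 at 4617 against 1851 CPM, which was not tested. Of 6 microtubule and motor genes, Mapt (0.33) rose, Map2 (-0.28) and Kif1b (-0.56) fell, and Dclk1, Map1b and Tubb2a did not pass.

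The course along NB1 was followed in 5 bins of about 516 nuclei, ordered by pseudo-time, with NPC before and GCimm1 after them. Dab1 stood at 513 CPM in NPC of w1, at 52.1 CPM in bin 1, and at 696, 3009, 4899 and 5924 CPM in bins 2 to 5, and the same fall and rise was seen in w2 (419 CPM in NPC, 96.5 in bin 1 and 5202 in bin 5) and w4 (629, 96.6 and 5793). Nrg3 stood at 24.0, 55.5 and 144 CPM in NPC of w1, w2 and w4 and at 2750, 2723 and 3792 CPM in bin 3. Sema5a went between bins 1 and 3 from 37.0 to 2332 CPM in w1, 80.2 to 1905 in w2 and 64.4 to 2224 in w4, and lay between 1965 and 3022 CPM in bins 4 and 5. Prox1 stepped from 347 CPM in bin 1 to 906 in bin 2 of w1, from 319 to 899 in w2 and from 333 to 1100 in w4, and lay between 802 and 1189 CPM after that. Bins of w4 held 17 to 34 nuclei.

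Plcb1 stood at 3322 CPM in bin 1 and 1714 in bin 2 of w1, 2414 and 1234 in w2, and 2222 and 1992 in w4, and at 1311, 1014 and 1848 CPM in NPC of the same libraries. Cttnbp2 stood at 890 CPM in NPC, 3380 in bin 1 and 1272 in bin 5 of w1, at 1580, 3766 and 1854 in w2, and at 511, 2920 and 1291 in w4. Both were therefore highest in bin 1, above NPC as well as above later NB1. Rmst differed from them in w1, where NPC stood at 531 CPM and bin 1 at 401, and was at 91.0, 85.0 and 96.4 CPM in bin 2 of w1, w2 and w4. Egfem1 was highest in NPC in each library, at 3789 CPM against 1601 in bin 1 of w1, 2591 against 1812 in w2 and 2398 against 1975 in w4. These levels were not tested between bins.

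**Figure D4:**
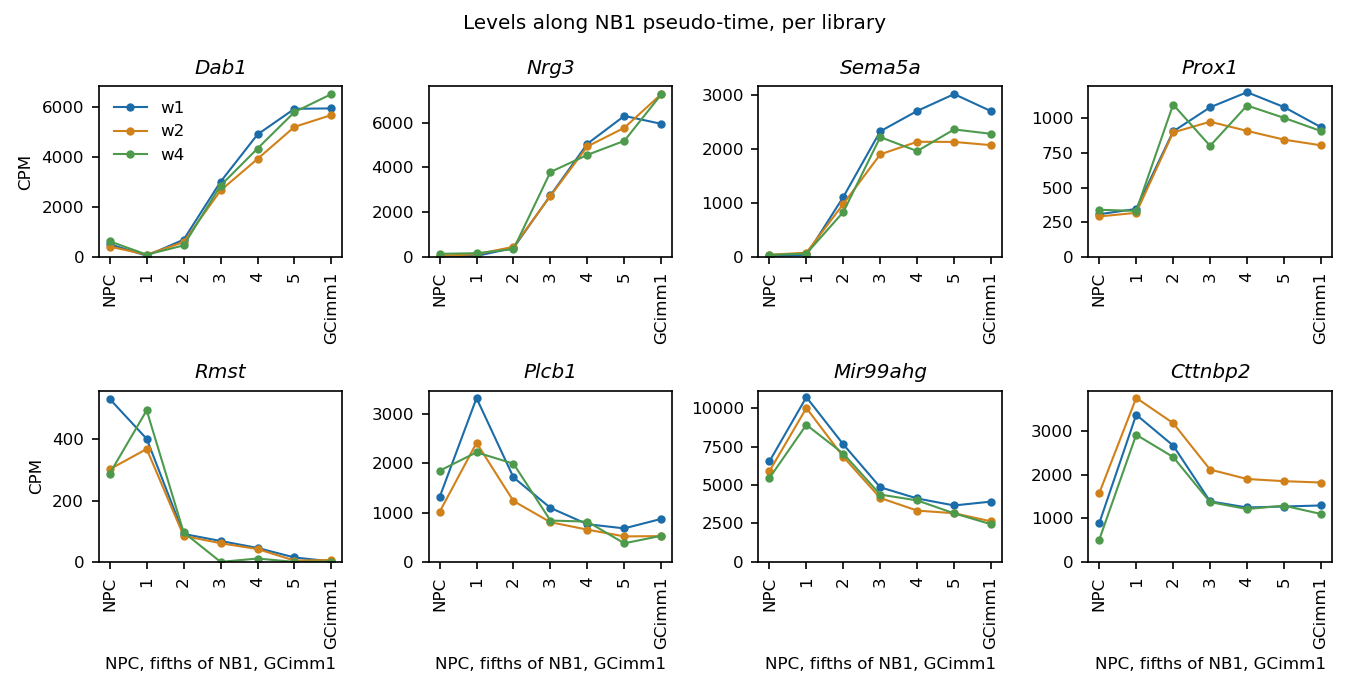
Level in CPM (y axis) of 8 genes in NPC, in 5 bins of NB1 nuclei of equal number ordered by pseudo-time, and in GCimm1 (x axis), 1 line per library. Dab1, Nrg3 and Sema5a stand higher in bin 3 than in bin 1, Prox1 steps up at bin 2, and Plcb1, Mir99ahg and Cttnbp2 are highest in bin 1 in each library.

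The abundant genes were also set beside the neighbouring clusters, with the 3 libraries weighted equally because the clusters hold them in different shares. Of the 70 that rose, 48 were highest in GCimm1, 20 in late NB1 and 2 in NPC, among NPC, early NB1, late NB1 and GCimm1, and 41, 14 and 1 were so in every library. Of the 50 that fell, 33 were highest in early NB1, 14 in NPC and 3 in GCimm1, and 24, 9 and 0 were so in every library. Levels stood in 1 rising order from NPC to GCimm1 for 41 of the 70, 31 of them in every library, and in 1 falling order for 10 of the 50, 3 of them in every library. NB2, which shares its stretch of the curve with late NB1, was not part of this ranking, and it differed from late NB1 in both directions. Pooled over the libraries, Dok6 stood at 2455 CPM in NB2 against 1678 CPM in late NB1, and Tenm2 at 639 against 1851 CPM. Plcb1, which fell, stood at 2185 CPM in NB2 against 831 CPM in late NB1. These 3 genes were picked after their values were seen. These comparisons between clusters are descriptions. Membership by detection in 80% or more of all nuclei, GCimm1 included, favours genes kept or raised after early NB1.

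In the 159 nuclei within 0.5 below it and the 160 within 0.5 above it, Dab1 stood at 273 and 897 CPM, Sema5a at 680 and 1453 CPM, Prox1 at 868 and 1110 CPM (against 485 CPM over all early and 1031 CPM over all late nuclei), and Plcb1 at 1733 and 1357 CPM. Without the 24 nuclei below pseudo-time 9 no named gene past the fold or the test changed its direction.

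The genes of the authors' table, and beside them the features outside it, are described by their late over early ratio in each library. The paper identified the most variable of the retained genes. Which table genes entered the curve was not known here, so all of them are treated as possibly used. A gene was counted as past the fold where it had at least 50 UMIs, its mean ratio was at least 1.5 fold and the 3 libraries had the same sign. Of 11456 features, 1652 were higher in late NB1 (14.4%) and 1133 were lower (9.89%), and the median log2 ratio of all of them was 0.04. From the mean log2 expression per nucleus in the deposited table the counts were 62 and 36, so these counts and those of the lists hold for ratios of summed UMIs. Of the 11456, 11019 were in the authors' table, 1579 of them higher and 1088 lower. The nuclei were chosen by values computed from genes in the table, so these numbers say how far apart the parts lie and carry no test. Of the genes past the fold, 453 higher and 139 lower ones had no UMI on 1 side of the cut in some library, mostly the shallow w4. With 3 counts put in place of each 0, and a ratio that would then turn its sign set to 0, the numbers were 1288 and 1055, and without the 24 nuclei below pseudo-time 9 they were 1690 and 1080.

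Several genes of progenitors were lower in late NB1. Eomes, the T-box factor of intermediate progenitors, stood at 101 CPM in early and 10.5 CPM in late nuclei of w1, 80.9 and 9.80 in w2, and 107 and 3.71 in w4. Slc1a3, a glial glutamate transporter, stood at 785 and 89.1 CPM in w1, 722 and 60.8 in w2, and 509 and 104 in w4. Beside 9.89% lower and 14.4% higher of all features, 5 of 16 stem cell and astroglial genes measured were past the fold lower and 2 higher, and of 11 progenitor and proneural factors 3 were lower, Eomes, Mfap4 and Btg2, and 1, the Notch ligand Dll1, was higher. The median of the latter list was -0.05, or -0.86 with 3 counts in place of a 0. Ccnd2, a D-type cyclin, stood at 87.7 and 26.3 CPM in w1, 95.5 and 28.7 in w2, and 96.1 and 29.7 in w4, against 776 CPM in NPC. Of 18 cell cycle genes 5 were lower and 5 higher, beside 14.4% higher and 9.89% lower of all features. Of the 5 higher, Mcm4 had 0 UMIs in early nuclei of w4 and a mean log2 ratio of 1.87, or 0.12 over w1 and w2. The higher ones included the DNA polymerase subunit Pola1 at a mean log2 ratio of 0.71 ± 0.17 (SD, n = 3). Its level of 108 CPM in early and 167 CPM in late nuclei was far under the 925 CPM in NPC.

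Markers of the neuroblast divided into early and late ones. Elavl4, an RNA-binding protein of the Hu family, stood at 437 CPM in early and 32.6 CPM in late nuclei of w1, 380 and 22.9 in w2, and 237 and 26.0 in w4, and Elavl2 of the same family at 1136 and 287, 1025 and 260, and 1136 and 278 CPM. Sox4 had a mean log2 ratio of -0.79 ± 0.09 and Igfbpl1, a secreted binding protein of the neurogenic niche, of -0.82 ± 0.06 (SD, n = 3). Tac2 (-1.16 ± 0.54), a tachykinin, and Draxin (-0.59 ± 0.35), a guidance protein, were also past the fold lower. Dcx (-0.31), Calb2 (-0.29), Stmn1 (-0.07) and Sox11 (0.02) were not past it. Rgs6, a regulator of G-protein signalling, stood at 123 and 783 CPM in w1, 99.4 and 764 in w2, and 119 and 861 in w4, and Gal was higher at 1.18 ± 0.83. In total 6 of the 13 markers were lower and 3 higher, beside 9.89% lower and 14.4% higher of all features. Their median was -0.31, against 0.04 for all features.

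Neuronal transcription factors were lower more often than higher. Sox6 stood at 326 and 47.0 CPM in w1, 269 and 38.9 in w2, and 192 and 44.6 in w4, and the nuclear receptor Rora at 1050 and 226, 984 and 169, and 910 and 200 CPM. Bcl11b, also called Ctip2 and kept by granule cells, was higher at 11.6 and 95.6 CPM in w1, 18.5 and 116 in w2, and 22.6 and 130 in w4. Neurod2 (mean log2 ratio 1.20 ± 0.21) and Foxp1 (0.80 ± 0.08) were higher as well. Of 28 factors measured, 8 were lower and 5 higher, beside 9.89% lower and 14.4% higher of all features. Their median was -0.46 against 0.04 for all features.

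Genes of excitability and synaptic input were more often higher than lower. Over all features 14.4% were past the fold higher and 9.89% lower, with a median log2 ratio of 0.04, and the lists were not tested against them. Of 29 sodium and calcium channel genes 16 were past the fold higher and 0 lower, of 21 glutamate receptor genes 12 higher and 1 lower, of 13 GABA receptor and chloride transporter genes 7 higher and 0 lower, and of 45 postsynaptic genes 15 higher and 1 lower. Without the 24 nuclei below pseudo-time 9, 1 sodium or calcium channel gene was lower. The medians of the 4 lists were 0.70, 0.93, 0.70 and 0.42, or 0.66, 0.79, 0.70 and 0.42 with 3 counts in place of a 0. Grm5, a metabotropic glutamate receptor, stood at 31.5 CPM in early and 551 CPM in late nuclei of w1, 53.6 and 541 in w2, and 73.5 and 505 in w4. Nalcn, the sodium leak channel, stood at 15.5 and 133 CPM in w1, 17.5 and 133 in w2, and 17.0 and 126 in w4. The GABA-A subunit Gabrg3 was at 6.79 and 93.5, 6.82 and 109, and 17.0 and 167 CPM, and Lrrtm3, a postsynaptic organizer, at 12.1 and 292, 4.87 and 342, and 28.3 and 249 CPM. Every late value of these 4 genes lay above every early value, which their choice by large ratios favours. Magi3 (-1.53 ± 0.14) and Grm3 (-1.29 ± 1.01) were the lower ones among them.

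Of 34 potassium channel genes 14 were higher and 5 lower, beside 14.4% and 9.89% of all features. The large-conductance calcium-activated channel Kcnma1 (2.75 ± 0.48) was among the higher, and Kcnip3 (-2.93 ± 0.43), Kcnn3 (-2.51 ± 0.71) and Kcnip4 (-2.34 ± 1.49) were among the lower. Kcnip4 varied by library, with 318 and 101 CPM in w1, 1263 and 76.1 in w2, and 610 and 245 in w4. Of 40 presynaptic genes 6 were higher and 6 lower, a higher share near that of all features. Within the synapsins Syn2 was lower at 947 and 180 CPM in w1, 904 and 205 in w2, and 746 and 152 in w4, while Syn3 was higher at 123 and 758, 93.5 and 555, and 124 and 598 CPM. The vesicle calcium sensor Syt1 was higher at 2.39 ± 0.08 (SD, n = 3).

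**Figure D5:**
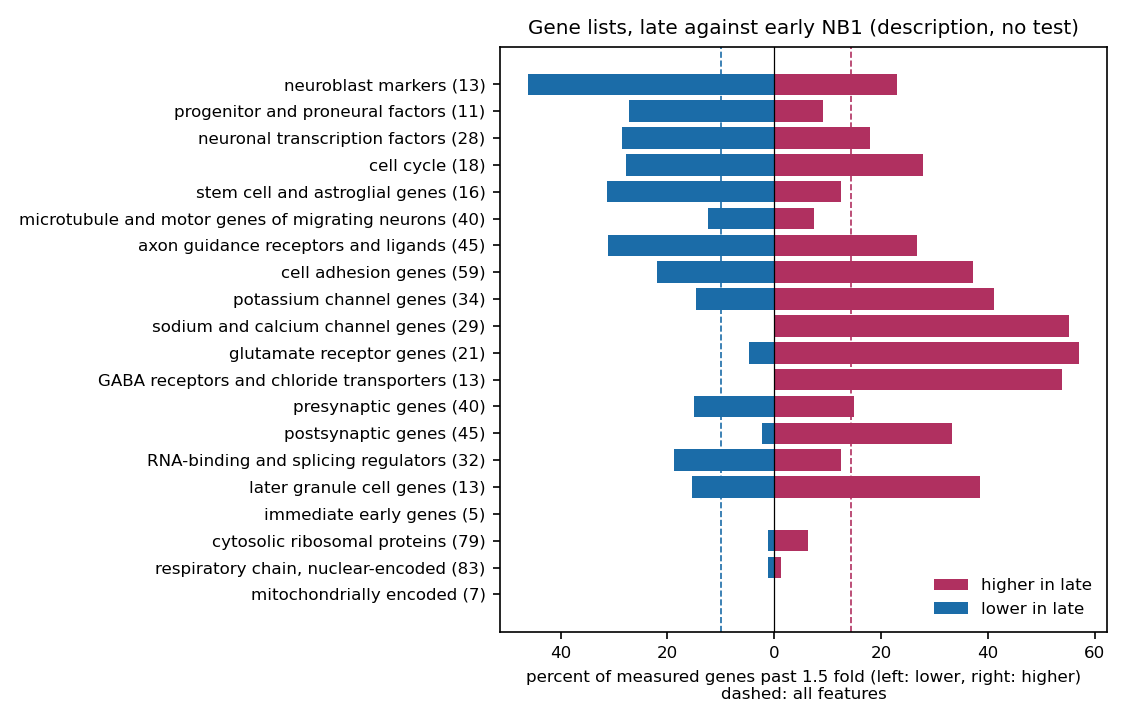
Percent of the measured genes of each list (x axis, number measured in brackets) past 1.5 fold, higher in late NB1 to the right and lower to the left, with the same percents over all features as dashed lines (14.4 and 9.89). Channel and receptor lists extend to the right, and neuroblast marker, transcription factor and progenitor lists to the left; the lists were described and not tested.

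Guidance and adhesion genes had large ratios in both directions. Unc5d, a netrin receptor that repels, stood at 1413 CPM in early and 36.5 CPM in late nuclei of w1, 1562 and 43.8 in w2, and 808 and 89.1 in w4. Robo2, a Slit receptor, stood at 595 and 35.8, 433 and 39.2, and 367 and 134 CPM, while its ligand Slit3 was higher at 103 and 660, 94.5 and 541, and 147 and 501 CPM. Lama2, a laminin chain, stood at 1208 and 41.4 CPM in w1, 1039 and 30.7 in w2, and 701 and 37.1 in w4. Pcdh15, a protocadherin, stood at 92.1 and 2310 CPM in w1, 97.4 and 2679 in w2, and 124 and 2376 in w4, and Cntnap5b, a Caspr protein, had a mean log2 ratio of 4.30 ± 0.82. Of 45 guidance genes 12 were higher and 14 lower, and of 59 adhesion genes 22 were higher and 13 lower. Both shares in each direction exceeded those of all features, 14.4% and 9.89%, and were not tested.

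The other genes with the largest ratios were of mixed kinds. Nell1, a secreted protein, stood at 13.1 and 906 CPM in w1, 4.87 and 778 in w2, and 17.0 and 676 in w4. Nrg3os, a transcript opposite to Nrg3, stood at 5.33 and 334 CPM in w1 and 6.82 and 333 in w2, and had 0 UMIs in early nuclei of w4 against 304 CPM in late ones. Its mean log2 ratio over w1 and w2 was 5.72, and the strand setting used in counting was not stated, so it cannot be told from Nrg3 with certainty. Rarb, Caln1, L3mbtl4 and Gfra1 were also without a UMI in early w4 nuclei, with mean ratios of 3.90, 3.59, 3.45 and 3.01 over w1 and w2. On the lower side, Rad51b had no UMI in late w4 nuclei and a ratio of -2.73 over w1 and w2. Pex5l (-3.55 ± 0.55), Frmpd4 (-3.49 ± 0.93), Sox2ot (-3.27 ± 0.27) and Vcan (-3.24 ± 0.94) completed that side, Sox2ot at -2.34 without the 24 nuclei below pseudo-time 9. Frmpd4 stood at 31.1 CPM in NPC, 392 in early and 27.0 in late NB1, and 352 in NB2.

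The counts of the remaining lists stand beside 14.4% higher and 9.89% lower of all features. Of 79 cytosolic ribosomal protein genes 5 were higher and 1 lower (median 0.15), of 83 nuclear-encoded respiratory chain genes 1 and 1 (median 0.10), of 5 measured immediate early genes 0 and 0, and of 7 mitochondrially encoded genes 0 and 0. Without the 24 nuclei below pseudo-time 9, 8 ribosomal protein genes were higher and 2 respiratory chain genes lower. Of 40 microtubule and motor genes 3 were higher and 5 lower (median -0.15), or 3 lower without those 24 nuclei, among them Kif26b (1.30 ± 0.42) and Gap43 (-1.14 ± 0.64). Of 32 RNA-binding genes 4 were higher and 6 lower (median -0.04), the lower ones including Nova1 (-1.35 ± 0.19). Of 13 later granule cell genes 5 were higher and 2 lower. Car10, which makes up part of that list, stood at 8.88 CPM in early and 157 CPM in late NB1 but at 7.18 CPM in GCimm1, and Inpp4b at 42.9, 198 and 30.2 CPM, so both were higher in late NB1 than in early NB1 or GCimm1.

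Markers of other cell types were summed in each library, and their counts past the fold stand beside 14.4% higher and 9.89% lower of all features. The summed level of the oligodendrocyte lineage list lay between 202 and 305 CPM in early and between 137 and 186 CPM in late nuclei, with Vcan the member past the fold. The microglia and vessel list lay between 39.9 and 294 CPM in early and between 52.0 and 78.4 CPM in late nuclei, the highest value being early w4. Of its 5 measured genes 1, Tek, was past the fold, higher, or 2 were higher without the 24 nuclei below pseudo-time 9. The mature granule cell list lay between 194 and 475 CPM in early and between 399 and 494 CPM in late nuclei, with 2 of 8 measured genes higher and 3 lower. The pyramidal and mossy cell list lay between 1990 and 2926 CPM in early and between 1047 and 1804 CPM in late nuclei, most of it Nnat, a gene of young neurons too, and of its 7 measured members Mpped1 and Nnat were lower and Galntl6 and Glipr1 higher. The GABAergic interneuron list lay between 497 and 767 CPM in early and between 286 and 420 CPM in late nuclei, and 1 of 8 measured genes, Gad1, was past the fold. Gad1 was higher in late nuclei, with a mean log2 ratio of 0.88, or 2.51 without the 24 nuclei below pseudo-time 9. It stood at 966 CPM in the 16 nuclei described above, 5.68 CPM in early nuclei from pseudo-time 9 on and 46.4 CPM in late nuclei. In early nuclei Gad1, Gad2, Adarb2 and Erbb4 thus all came mainly from those 16 nuclei. The part of these cells in the other results was not tested beyond leaving them out.

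Promoters of genes that rose and fell are shown for the gene of smallest p in each direction with exactly 1 start in the RefSeq promoter table, Nrg3 and Plcb1. Of the 16 named genes outside the curve 13 were in that table and 9 had 1 start. The 250 bases before the start are printed 5′ to 3′ with CpG dinucleotides in capitals, Nrg3 from chr14:39473089-39473338 on the minus strand and Plcb1 from chr2:134785914-134786163 on the plus strand of GRCm38.p6.

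Nrg3: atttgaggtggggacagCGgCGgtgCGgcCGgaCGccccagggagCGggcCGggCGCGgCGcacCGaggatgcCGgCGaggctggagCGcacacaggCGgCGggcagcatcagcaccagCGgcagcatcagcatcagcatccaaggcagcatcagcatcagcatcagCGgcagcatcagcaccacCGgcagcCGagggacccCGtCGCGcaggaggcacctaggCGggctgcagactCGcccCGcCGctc
Plcb1: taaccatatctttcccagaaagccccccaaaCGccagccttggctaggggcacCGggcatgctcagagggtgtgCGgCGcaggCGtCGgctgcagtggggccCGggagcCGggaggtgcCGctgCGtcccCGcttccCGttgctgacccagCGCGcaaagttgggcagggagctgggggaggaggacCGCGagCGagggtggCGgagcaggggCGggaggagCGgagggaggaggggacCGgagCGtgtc

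The Nrg3 promoter held 27 CpG dinucleotides and 72.4% G and C, and that of Plcb1 22 and 71.2%, against medians of 6 and 52.4% over all 32851 promoters of the same length. The E-box CAGATG, a form bound by proneural and NeuroD factors, was in neither of them nor in the other 7, searched on both strands, and neither was the E-box CAGCTG. Among genes with 1 start, with no chromosome left out, the first motif was in 6 of 30 promoters of genes that rose and 2 of 32 of genes that fell, and in 14.4% of all promoters. The second was in 3 of 30, 2 of 32 and 13% of them. These matches are descriptions of 250 bases and say nothing of binding.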

How the data were processed

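Per the labels and methods, the authors aligned reads with STARsolo 2.7.4a to mm10 (GRCm38), counted exonic and intronic UMIs of uniquely mapped reads per gene and nucleus, and removed doublets and low-quality nuclei. They also left out a group of w4 nuclei, mostly with higher male-linked expression, which the paper proposes could come from a single outlier male mouse. They kept features with over 20 molecules found in >1 and <80% of nuclei, identified the most variable of these, and computed pseudo-time with slingshot. The deposited count matrices hold raw UMI counts, and the deposited table holds log2 expression, cluster and pseudo-time per nucleus. All 13353 table genes were matched to features by their pattern of nonzero nuclei, 1144 of them under another symbol. NB1 nuclei came from 3 of the 4 libraries, and shares of nuclei with a feature were taken over all 4.

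UMI counts were summed per library and side of the cut (176978 to 4300923 UMIs per sum). Log2 ratios used 0.5 counts added on the scale of the mean depth. Features outside the table were tested with edgeR 4.0.16 (filterByExpr, TMM, library block, quasi-likelihood, 2 residual degrees of freedom, common dispersion 0.00468, Benjamini-Hochberg at 0.05), with DESeq2 1.42.0 as an alternative, in R 4.3.3. The fit was tested on simulated data. Of 45706 features 45143 had coordinates in GENCODE M21. Named were all neuroblast markers, the 10 largest ratios in each direction (20 UMIs per library), the 3 largest per list and direction, and the 8 smallest adjusted p outside the table in each direction, clone-named models left out. The members and lists were chosen with earlier results of these data known. Each library is 1 pool of 1 week, and the block removes differences between pools. The p-values thus rest on how the late over early change varies across 3 pools, with dispersion information shared over all fitted features. Some genes of the lists are not reported here.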

Additional observations from a re-analysis of the deposited data

Results flagged for a closer look

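The share of nuclei called male by Y-linked against Xist and Tsix UMIs moved in opposite directions between weeks. It was 12.1 percentage points higher in late than in early NB1 in w1 and differed by -8.32 percentage points in w2, with 1 pool of mice per week, so the difference between weeks was not tested. It was computed from 427 early and 876 late called nuclei in w1 and 215 and 675 in w2.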

How the results depend on the processing

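Leaving out the replicate block, which is the library that early and late nuclei share, gave 62 features outside the curve that rose and 47 that fell, against 88 and 71 with it. DESeq2 called 61 and 49. A change of at least 1.5 fold as well as the test left 57 and 39. Leaving out 1 library at a time gave 56 to 100 that rose and 42 to 107 that fell, the lowest without w1 and the highest without w4, where 2 libraries remain. The descriptive counts of 1652 higher and 1133 lower became 1025 and 540 at 2 fold, 946 and 632 with at least 200 UMIs, and 62 and 36 from the mean log2 expression per nucleus in the deposited table (the cause was not tested). Leaving out 1 library at a time gave 1564 to 1762 and 1071 to 1365. With a lower cut (11.3) the late share was 74.4% in w1, 79.9% in w2 and 71.5% in w4, and with a higher cut (12.3) it was 60.6% in w1 and 70.0% in w2. Features per nucleus differed by 59.5 at all UMIs against 30.7 at 2000 UMIs. Insm1, Lppos and Mcm4 depend on an empty w4 sum, and the 3-count value cannot turn a ratio, since one that would turn is set to 0. Apart from these 3, no gene chosen by the naming rule that was past the fold or the test changed its direction under the alternatives run, which were not made gene by gene for the other features. The 3-count value for empty sums, the omission of nuclei below pseudo-time 9 and the equal weighting of libraries in the order of levels were chosen after seeing the data. The w4 sums, at 176978 and 269339 UMIs, limit the rare transcripts.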
